A study of Mus musculus with 22 samples.

Results

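The genes described here are 35 members of the endoplasmic reticulum (ER) stress and amino acid stress programmes of the cell, given by a list of names. The list has 2 arms. The ATF4 arm holds 15 genes and the chaperone/XBP1 arm holds 20. All 15 genes of the first arm and 19 of the second had an array probe annotated with 1 gene symbol, so 34 members were measured among 22180 genes of the series. The missing gene was Pdia4, whose only probe also lists a microRNA. The samples were haematopoietic stem cells of wild-type C57Bl/6J mouse fetal liver at stage E14.5, sorted as SLAM LSK cells, which are lineage-negative cells positive for Sca-1 and Kit and gated on SLAM family receptors. Before the sort, the liver cells spent 4 h or 10 h on OP9-DL1, a stromal cell line that carries the Notch ligand Dll1, in the presence of DMSO, the solvent, or of a gamma-secretase inhibitor (GSI) at 1 µM. The 4 h groups, DMSO and GSI, held 7 samples each and the 10 h groups 4 each, with 1 array per sample. Each biological replicate gave a DMSO and a GSI sample, which makes 7 pairs at 4 h and 4 pairs at 10 h. All groups therefore shared the stroma, the Notch ligand and the culture, and no sample of uncultured cells was analysed here. Whether livers were pooled within a replicate is not stated.

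The ER folds proteins that are to be secreted or placed in membranes. When unfolded chains accumulate, 3 sensors in its membrane respond. PERK (Eif2ak3) phosphorylates the translation factor eIF2alpha, which slows protein synthesis but favours translation of the transcription factor ATF4. The same step is reached by GCN2 when amino acids run short, so ATF4 target genes report on amino acid supply as well as on folding. IRE1alpha (Ern1) splices the mRNA of Xbp1, and ATF6 is cut loose from the membrane; the resulting factors raise chaperones, folding enzymes and the machinery that sends misfolded proteins to the proteasome. Blood stem cells make little protein, and their response to unfolded protein has been studied as a determinant of whether they survive stress. Gamma-secretase is the protease that frees the intracellular domain of Notch, and it also cuts other membrane proteins. The question the design poses is which genes respond when this cleavage is blocked.

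All levels are log2 array values as deposited, and all differences are GSI minus DMSO on that log2 scale within a pair unless stated otherwise. Errors of differences are standard errors (SE) from limma, and errors of levels are SDs. Array medians ran from 5.03 to 5.12 at 4 h and from 4.45 to 4.52 at 10 h, so deposited levels of different times have different baselines. Hes1, a direct Notch target, was lower with GSI in 7 of 7 pairs at 4 h (-0.97 ± 0.0884, limma adjusted p = 0.0002) and in 4 of 4 pairs at 10 h (-1.36 ± 0.117, limma adjusted p = 4.7e-05). Of 9 stem cell gate markers 7 were measured. Kit had a mean level of 9.97 in DMSO at 4 h, above 96.6% of genes, whereas Slamf1, a defining marker of the gate, had 3.98 there, above 23.5% of genes. Markers of other cells were present too. Over 11 measured hepatocyte genes the mean level ran from 6.04 to 9.31 across the DMSO samples at 4 h, and over 15 OP9 stroma genes from 6.38 to 8.08. In bulk RNA of this kind, a change in the share of a cell type and a change in RNA per cell cannot be told apart. Codes in the sample descriptions divide the pairs into sets. At 4 h, pair 1 stands alone, pairs 2 and 3 share a code, and so do pairs 4 to 7. At 10 h, pairs 1 and 2 share a code, as do pairs 3 and 4. These sets are called runs here, numbered 1 to 3 at 4 h and 1 to 2 at 10 h. What the codes mean is not stated.

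The arms were also compared by short DNA elements near the start of their genes. These are shown first because the expression results are later read against them. RefSeq windows of assembly GRCm38.p6, from 250 bases before the annotated start to 50 after it, were found for 31 of the 35 members, 17 of the chaperone/XBP1 arm and 14 of the ATF4 arm. No window was listed for Slc7a5, Atf6, Manf and Hyou1. The ER stress element (ERSE) was searched as CCAAT and CCACG with 9 bases between them, and ERSE-II as ATTGG and CCACG with 1 base between them, on both strands. ERSE was found in 7 of 17 windows of the chaperone/XBP1 arm and in 0 of 14 of the ATF4 arm, against 0.137% of 27025 genes. ERSE-II was found in 2 of 17 and 0 of 14, against 0.0444% of genes. The arm was listed by name as ER stress genes, and the elements are named for that response. These counts therefore describe the list and are not a test. The matches are printed 5′ to 3′ in the orientation of the element, with the searched letters in capitals and the free bases in lower case. Positions are counted from the start of transcription, with -1 the base before it.
Hspa5: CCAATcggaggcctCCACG
Hsp90b1, distal: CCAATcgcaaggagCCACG
Hsp90b1, proximal: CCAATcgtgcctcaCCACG
Calr: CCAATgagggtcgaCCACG
Pdia6: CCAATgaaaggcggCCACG
Creld2: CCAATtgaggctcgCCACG
Dnajc3: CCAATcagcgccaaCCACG
Syvn1: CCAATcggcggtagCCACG
Herpud1: ATTGGgCCACG
Dnajb11: ATTGGcCCACG
The match in Hspa5 began at -65 and that in Syvn1 at -44, and Hsp90b1 held a pair of matches, at -212 and -107. Only the match in Dnajb11 lay after the start, at 8. The free bases within ERSE differed from match to match, and the matches of Calr, Creld2 and the proximal one of Hsp90b1 lay on the strand opposite to the gene.

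The 250 bases before the start are printed for the members whose expression passed the test in any GSI comparison below, on the strand of the gene and with ERSE or ERSE-II in capitals.
Pdia6, chr12:17266339-17266588, plus strand: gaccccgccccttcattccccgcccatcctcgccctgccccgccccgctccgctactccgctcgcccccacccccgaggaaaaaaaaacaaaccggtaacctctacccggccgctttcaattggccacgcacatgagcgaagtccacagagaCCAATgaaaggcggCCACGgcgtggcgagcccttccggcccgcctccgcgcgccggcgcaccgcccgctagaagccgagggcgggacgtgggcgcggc
Herpud1, chr8:94386179-94386428, plus strand: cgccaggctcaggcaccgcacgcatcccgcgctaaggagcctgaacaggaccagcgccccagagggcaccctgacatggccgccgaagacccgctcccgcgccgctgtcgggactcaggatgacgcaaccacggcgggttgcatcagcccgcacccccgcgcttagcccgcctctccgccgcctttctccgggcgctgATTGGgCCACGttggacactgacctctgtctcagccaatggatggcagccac
Sdf2l1, chr16:17132384-17132633, minus strand: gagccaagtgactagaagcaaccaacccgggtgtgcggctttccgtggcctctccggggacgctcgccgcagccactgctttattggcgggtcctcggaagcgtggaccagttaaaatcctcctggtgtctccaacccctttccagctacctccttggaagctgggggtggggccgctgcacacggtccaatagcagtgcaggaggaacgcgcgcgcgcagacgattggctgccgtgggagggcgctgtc
The window of Sdf2l1 held neither element as spelled. The amino acid response element, searched as TTGCATCA on both strands, was found in Chac1 of the ATF4 arm and in Herpud1, where it begins at -112, against 1.03% of all genes. A looser form, TGATGNAA, which the reverse complement of the first form also matches, was found in Asns, Chac1, Trib3 and Herpud1, against 4.51% of genes. The unfolded protein response element TGACGTGG was found in 0 of 31 member windows, against 0.714% of genes.

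At 10 h the genes of the chaperone/XBP1 arm had higher mean levels with GSI than with DMSO, and 2 of them passed the test. Pdia6, a protein disulfide isomerase of the ER lumen, rose by 0.52 ± 0.0961 (1.44-fold, limma adjusted p = 0.025), and Herpud1, an ER membrane protein that takes part in the degradation of misfolded proteins, rose by 0.67 ± 0.144 (1.59-fold, limma adjusted p = 0.0475). They were the only members of the 34 called at this time, against 0.667% of all genes called in either direction and 0.555% called higher. The mean difference was above 0 in 19 of 19 genes of the arm, with a median of 0.23, and in 46.2% of all genes, with a median of -0.01. GSI was higher in 4 of 4 pairs for 11 of the 19 genes: Xbp1, Hspa5, Hsp90b1, Pdia6, Creld2, Manf, Hyou1, Sdf2l1, Dnajb11, Herpud1 and Syvn1. That pattern was seen in 8.47% of all genes.

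The share of genes above 0 depended on signal at 10 h. The median difference of all genes was -0.07 in the 10% of genes with the lowest signal and 0.07 in the 10% with the highest, and 18 of the 19 genes of the arm lay in the top 30%. In that top 30%, 68% of genes had a difference above 0, with a median of 0.07, and 16.6% were higher in 4 of 4 pairs. After quantile or cyclic loess normalization within each time, which act on such a trend, the arm's mean difference was 0.20 in place of 0.27 and 18 of 19 genes stayed above 0. Pdia6 was called under both (limma adjusted p = 0.0446 and 0.0489), and Herpud1 under neither (limma adjusted p = 0.077 and 0.078).

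Markers of cell types differed at 10 h as well. The mean difference over the 7 stem cell gate genes was 0.8, 0.334, 0.213 and 0.366 in pairs 1 to 4, with 6 of 7 genes above 0 and 2 called. Over the 15 stroma genes it was 0.161, -0.788, -0.688 and -0.296, with 2 of 15 above 0 and none called by limma. Of the erythroid genes 0 of 5 were above 0 (mean -0.17) and of the macrophage genes 3 of 10 (mean -0.10). Over the 11 hepatocyte genes the pairs gave -0.343, -0.686, 1.12 and -0.328. The list of plasma cells, which are rich in ER chaperones, had mean levels of 4.22 to 4.47 in DMSO and 4.22 to 4.31 in GSI. That of mast cells had 3.24 to 3.56 in DMSO and 3.11 to 3.43 in GSI. Single genes of these lists lay higher, such as Sdc1 of the first at 7.18 and Cpa3 of the second at 5.23 in DMSO. The part of these cells in the rise of Pdia6 and Herpud1 was not tested.

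**Figure D1:**
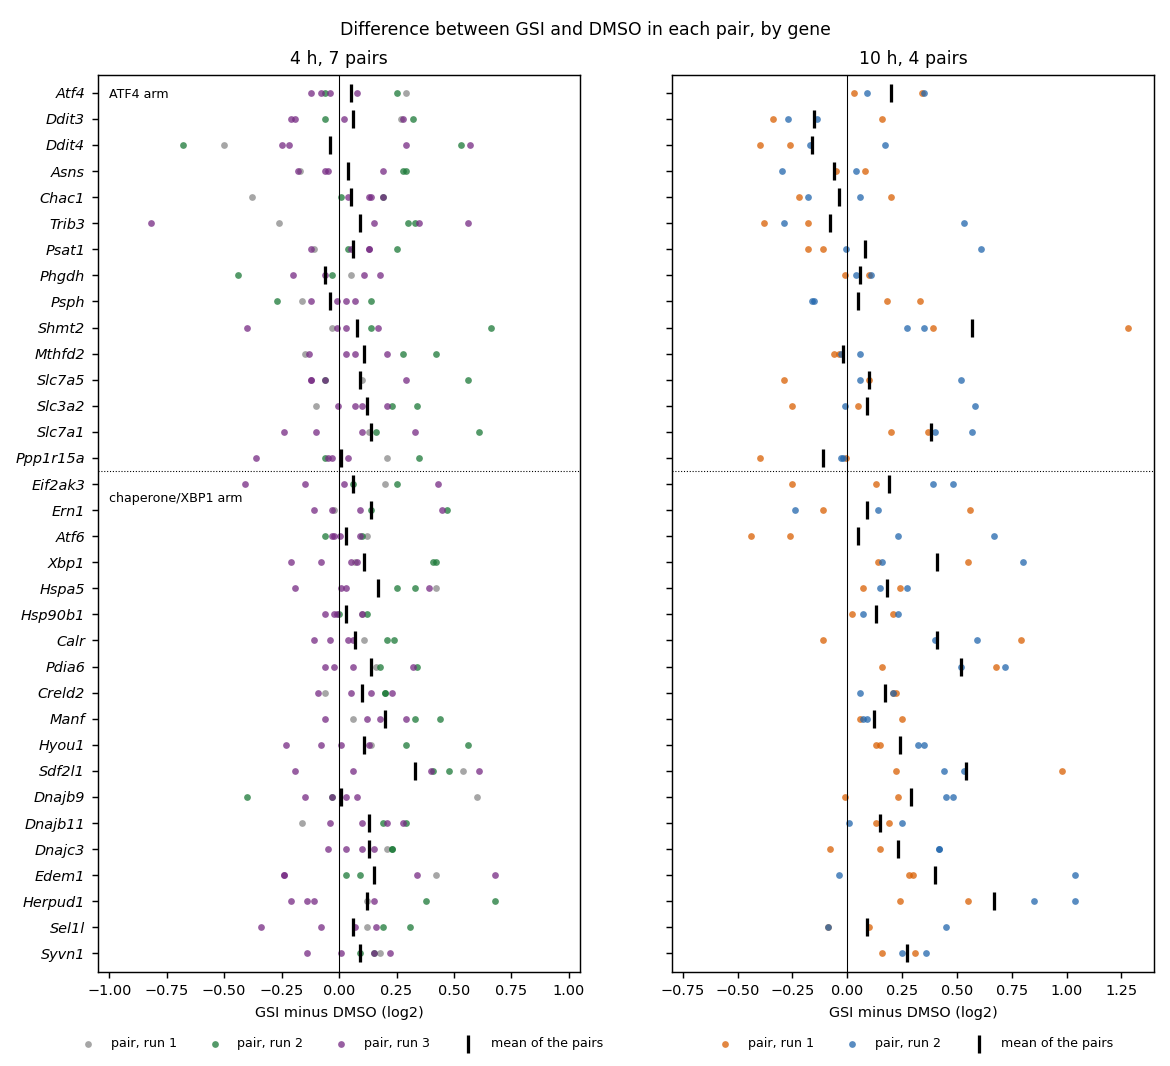
Each point is the difference between the GSI and the DMSO sample of 1 pair (log2, horizontal axis) for 1 gene (vertical axis), coloured by run, and black ticks are means over pairs. In the right panel the ticks of all 19 genes below the dotted line, the chaperone/XBP1 arm, lie above 0, while those of the 15 ATF4 genes lie on both sides.

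The levels at 10 h show what these means rest on. Pdia6 had levels of 8.45, 9.02, 9.06 and 8.52 in DMSO pairs 1 to 4 and 9.14, 9.18, 9.58 and 9.24 with GSI. Every GSI sample lay above every DMSO sample, and the difference was smallest in pair 2. Herpud1 had 6.76, 7.39, 7.07 and 6.00 in DMSO and 7.32, 7.63, 7.92 and 7.03 with GSI. Its groups overlapped, since the DMSO samples lay far apart, but GSI was higher in each pair, by 0.55, 0.24, 0.85 and 1.04. Sdf2l1, a small ER protein that works with the chaperone BiP, had 7.01, 7.73, 7.83 and 7.48 in DMSO and 7.99, 7.94, 8.37 and 7.92 with GSI. Its groups did not overlap, and its mean difference was 0.54 ± 0.139 (limma adjusted p = 0.0899). For Pdia6, Herpud1 and Sdf2l1 the lowest DMSO levels were those of pairs 1 and 4. The same held for the rest of the arm except Creld2, Manf, Dnajb9, Dnajc3, Eif2ak3, Ern1 and Atf6. The mean of the stem cell gate genes was also lowest in those DMSO samples, at 7.30 and 7.34 against 7.84 and 7.55. The genes share these samples and are therefore not separate evidence.

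Calreticulin (Calr), the lectin chaperone of glycoproteins, had 10.00, 10.78, 10.60 and 10.21 in DMSO and 10.79, 10.66 and 10.80 with GSI in pairs 1, 2 and 4, and 11 in pair 3. The difference of 0.41 ± 0.104 (limma adjusted p = 0.0795) had the opposite sign in pair 2. Without that pair it was 0.59 (limma adjusted p = 0.00782). Conversely, Pdia6 was no longer called without pair 1 or without pair 4 at 10 h, with a limma adjusted p of 0.108 in each case. Herpud1 was not called without 10 h pair 1, 3 or 4 (limma adjusted p = 0.108, 0.0951 and 0.179), nor without any 4 h pair other than the third (0.0595 to 0.0731). Neither gene was called with the 10 h arrays fitted alone (limma adjusted p = 0.424 and 0.434) or with the pairing ignored (0.517 and 0.773). Within runs 1 and 2 Pdia6 differed by 0.42 and 0.62, and Herpud1 by 0.40 and 0.94, with no call in either run.

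**Figure D2:**
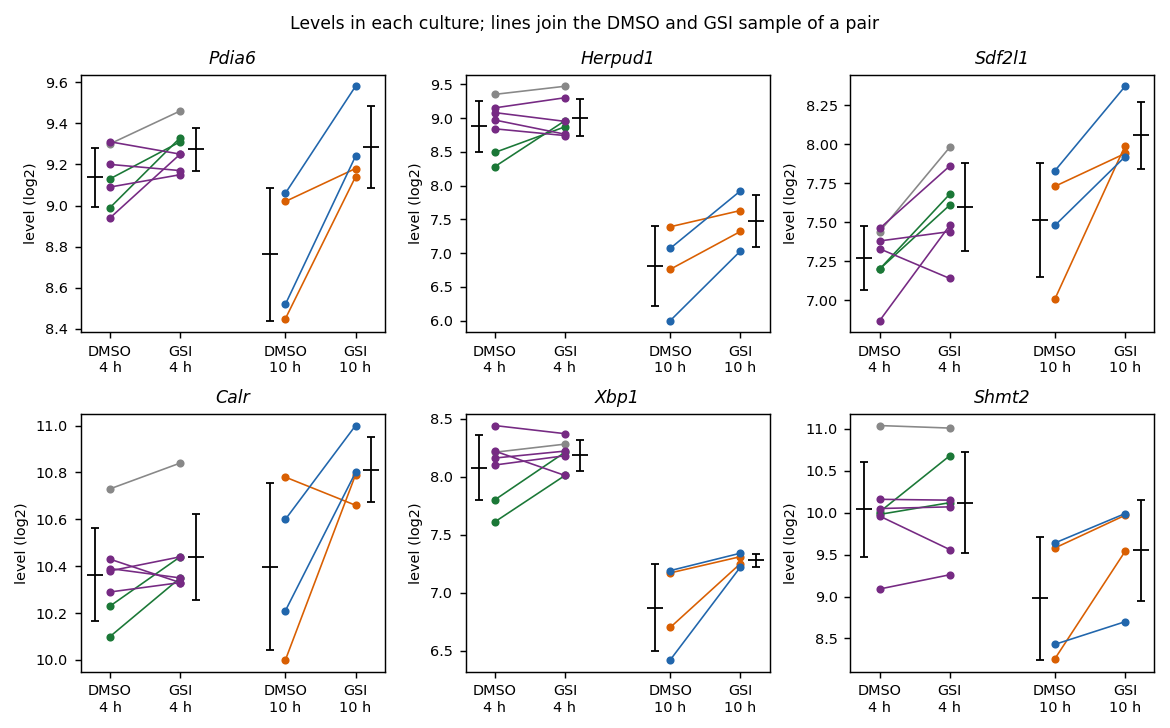
Levels (log2, as deposited) of 6 members in each sample; lines join the DMSO and GSI sample of a pair and are coloured by run as in the plot of all members, and black marks are group means with SD. At 10 h all 4 lines rise for each gene except Calr, where pair 2 falls, and the GSI samples of Xbp1 lie between 7.22 and 7.34 while its DMSO samples lie between 6.42 and 7.19.

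Among the sensors and factors, Xbp1 itself had the largest difference at 10 h. Its levels were 6.70, 7.17, 7.19 and 6.42 in DMSO and 7.25, 7.31, 7.34 and 7.22 with GSI, so that the groups did not overlap and the spread was smaller with GSI (SD 0.0545 against 0.373). The difference was 0.41 ± 0.127 (limma adjusted p = 0.143). The probe reads the gene as a whole, and spliced and unspliced Xbp1 mRNA were not measured apart. Eif2ak3, which encodes PERK, had 5.80, 5.78, 5.40 and 5.43 in DMSO and 5.93, 5.52, 5.79 and 5.91 with GSI (0.19 ± 0.143, limma adjusted p = 0.588). Ern1 had 6.58, 7.07, 7.16 and 7.13 in DMSO and 7.14, 6.97, 7.30 and 6.89 with GSI (0.09 ± 0.131, limma adjusted p = 0.804). Atf6 had 7.97, 8.36, 7.70 and 7.18 in DMSO and 7.71, 7.92, 7.93 and 7.85 with GSI (0.05 ± 0.132, limma adjusted p = 0.902). For all 3 sensors the groups overlapped and at least 1 pair went down; in Atf6 both pairs of run 1 went down and both pairs of run 2 went up.

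The other chaperones and folding enzymes differed by less. Hspa5, which encodes BiP, the central chaperone of the ER and the one that holds the sensors inactive, had 8.33, 8.53, 8.52 and 8.21 in DMSO and 8.57, 8.60, 8.80 and 8.36 with GSI (0.18 ± 0.0965, limma adjusted p = 0.411). Each pair was higher, but the groups overlapped. Hsp90b1, the ER form of Hsp90, had the smallest standard error of the members: 11.18, 11.33, 11.34 and 11.26 in DMSO and 11.39, 11.36, 11.42 and 11.49 with GSI. Its groups did not overlap, and the difference was 0.13 ± 0.0482 (limma adjusted p = 0.215). With Xbp1, Pdia6 and Sdf2l1 it made 4 of 19 genes of the arm without overlap, against 1.41% of all genes, and no gene of the ATF4 arm was among them. Dnajc3, an inhibitor of PERK that also serves as a co-chaperone of BiP, had 9.29, 9.47, 9.05 and 9.01 in DMSO and 9.44, 9.39, 9.47 and 9.43 with GSI (0.23 ± 0.0848, limma adjusted p = 0.235). Its GSI samples had an SD of 0.0337 against 0.217 in DMSO, and pair 2 went down.

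The folding members not yet given, Creld2, Manf, Hyou1, Dnajb9 and Dnajb11, had differences of 0.12 to 0.29 at 10 h, and none passed the test. Hyou1, a nucleotide exchange factor for BiP, was higher by 0.15, 0.13, 0.32 and 0.35 in pairs 1 to 4. Manf, a secreted ER protein that binds BiP, was higher by 0.06, 0.25, 0.09 and 0.07. The 4 genes of ER-associated degradation had mean differences of 0.268, 0.196, 0.273 and 0.693 in pairs 1 to 4, with the highest value in pair 4. Edem1, which draws mannose-trimmed glycoproteins out of folding, differed by 0.40 ± 0.166 (limma adjusted p = 0.291), but pair 4 alone contributed 1.04 and pair 3 had -0.04. Syvn1, the ubiquitin ligase of this pathway, was higher by 0.31, 0.16, 0.36 and 0.25 (0.27 ± 0.0882, limma adjusted p = 0.167). Sel1l, the partner that stabilises the ligase, differed by 0.09 ± 0.116, with 2 of 4 pairs higher.

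At 4 h the arm differed in the same direction but by less, and no member passed. In all genes 1 was called, which is 0.00451%. An unadjusted p under 0.05 was reached by 3 of 34 members, all higher, against 4.21% of all genes. These were Sdf2l1 (0.33 ± 0.105), Manf (0.20 ± 0.0726) and Hspa5 (0.17 ± 0.073), each with a limma adjusted p of 0.999. The mean difference was above 0 in 19 of 19 genes of the arm (median 0.11) and in 54.3% of all genes (median 0.0085). None of the 34 members was higher in 7 of 7 pairs, against 1.01% of genes. In 6 of 7 pairs Hspa5, Manf, Sdf2l1, Dnajc3 and Syvn1 of this arm and Chac1 of the ATF4 arm were higher, against 7.78% of genes with 6 or 7 pairs. Marker lists differed at 4 h too: 7 of 7 stem cell gate genes were above 0 (mean 0.12), 12 of 15 stroma genes (0.13), 8 of 10 macrophage genes (0.13), 3 of 11 hepatocyte genes (-0.08) and 0 of 5 erythroid genes (-0.25), none called by limma, and their part in the arm's values was not tested.

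Sdf2l1 at 4 h had levels from 6.87 to 7.46 in DMSO (median 7.33) and from 7.14 to 7.98 with GSI (median 7.61). Only pair 6 went down, by 0.19, while the pairs that went up did so by 0.06 to 0.61. Hspa5 had 8.97 to 9.52 in DMSO (median 9.36) and 9.22 to 9.94 with GSI (median 9.39). Its difference was 0.25 to 0.42 in pairs 1 to 4 and 0.0094, -0.19 and 0.03 in pairs 5, 6 and 7. Manf had 7.42 to 8.01 in DMSO (median 7.69) and 7.85 to 8.07 with GSI (median 7.91), and only pair 7 went down. Pdia6 differed by 0.14 ± 0.0727 and Herpud1 by 0.12 ± 0.109, with 5 and 4 of 7 pairs higher. Xbp1 was higher by 0.42 and 0.41 in the pairs of run 2 and by 0.08 or less in the other pairs, with -0.08 and -0.21 in pairs 6 and 7.

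With equal weight to both times, Sdf2l1 was higher by 0.44 ± 0.0872 (limma adjusted p = 0.0441) and Pdia6 by 0.33 ± 0.0603 (limma adjusted p = 0.0307). They were 2 of 34 members called, against 0.32% of all genes called and 0.266% called higher. Sdf2l1 was higher in 10 of 11 pairs and Pdia6 in 9 of 11. Both calls were lost without 10 h pair 1, 3 or 4 and without 4 h pair 1, 2, 3, 4 or 7, and that of Sdf2l1 also without 4 h pair 5; the limma adjusted p was then 0.0503 to 0.0843 for Pdia6 and 0.0553 to 0.126 for Sdf2l1. Cyclic loess normalization (0.0525 and 0.099), a fit without intensity trend (0.0514 and 0.0524) and a fit without the pairing (0.616 and 0.688) ended both calls, and quantile normalization (0.0811) that of Sdf2l1. The effect at 10 h was not shown to differ from that at 4 h for any member. Herpud1 had the largest difference between the times (0.55 ± 0.18, limma adjusted p = 0.407), and Pdia6 the lowest limma adjusted p (0.405, for a difference of 0.38 ± 0.121). No member was called on this difference, against 0.018% of all genes, and 4 of 34 members had an unadjusted p under 0.05, against 9.36% of all genes.

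Averaged over its 19 genes, the chaperone/XBP1 arm differed by 0.175, 0.218, 0.244, 0.187, 0.0377, -0.0807 and 0.0261 in pairs 1 to 7 at 4 h, with a mean of 0.12 (SD 0.121, n = 7 pairs). At 10 h it differed by 0.301, 0.0715, 0.293 and 0.421, with a mean of 0.27 (SD 0.146, n = 4 pairs). The pairs were not alike: pairs 1 to 4 at 4 h lay between 0.175 and 0.244, and pairs 5 to 7, all in run 3 with pair 4, between -0.0807 and 0.0377. Within runs the arm's mean was 0.23 in run 2 at 4 h, with 18 of 19 genes above 0, and 0.04 in run 3, with 12 of 19. At 10 h it was 0.19 in run 1 (17 of 19 genes) and 0.36 in run 2 (18 of 19). Hes1 fell in every one of these pairs, by 0.71, 0.75 and 0.78 in 4 h pairs 5, 6 and 7 and by 0.95 to 1.31 in pairs 1 to 4. This division of the 4 h pairs was made after the arm's values were seen. A link between the fall of Hes1 and the arm's values was not tested. In 4 h pair 1 the GSI sample also had more of the marker lists of stroma (mean difference 1.1), macrophages (0.772) and hepatocytes (0.505), and the part of these cells in that pair's value was not tested.

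**Figure D3:**
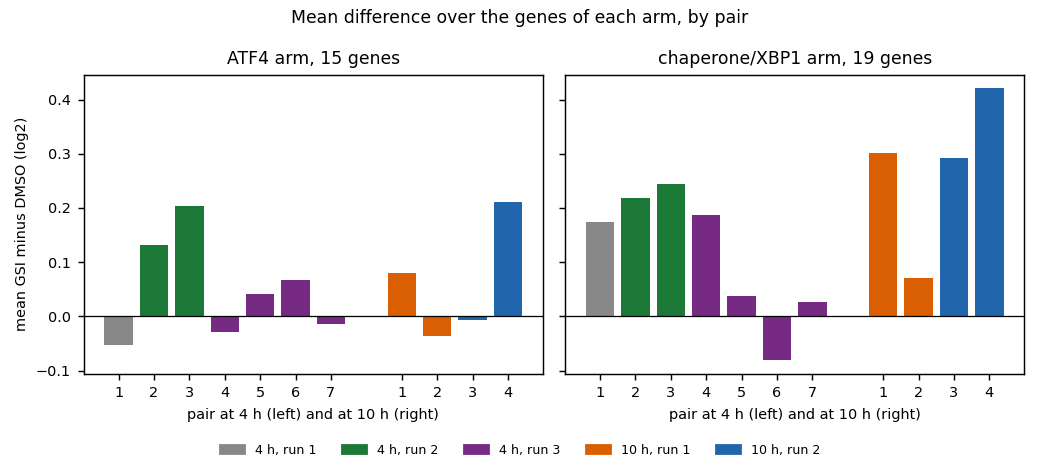
Bars are the mean difference between GSI and DMSO (log2) over the 15 genes of the ATF4 arm (left) and the 19 genes of the chaperone/XBP1 arm (right) in each pair, coloured by run. On the right 10 of 11 bars are above 0 and pair 6 at 4 h is at -0.0807; on the left bars fall on both sides, between -0.0533 and 0.211.

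The ATF4 arm had mostly positive differences at 4 h and both signs at 10 h. Of its 15 genes, 12 had a difference above 0 at 4 h (median 0.06) and 8 at 10 h (median 0.05), against 54.3% and 46.2% of all genes, and no member was called by limma at either time (unadjusted p under 0.05 in 0 and 3 of 15 genes, against 4.21% and 14.1% of all genes). The difference was above 0 at both times in 6 of 15 genes, against 19 of 19 in the chaperone/XBP1 arm and 27.1% of all genes. Averaged over the arm, the pairs gave -0.0533 to 0.204 at 4 h and 0.0795, -0.0366, -0.00741 and 0.211 at 10 h. The 10 h mean of 0.06 became 0.0081 after quantile and 0.0017 after cyclic loess normalization, with 6 and 5 of 15 genes above 0.

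The 3 genes of the arm with an unadjusted p under 0.05 at 10 h were higher in 4 of 4 pairs. This pattern was seen in 3 of 15 genes of the arm, against 8.47% of all genes. Among the 6654 genes with the highest signal, which include 12 of these 15, it was seen in 16.6%. Shmt2, the mitochondrial enzyme that turns serine into glycine and a folate-bound carbon unit, had 8.26, 9.58, 9.64 and 8.43 in DMSO and 9.54, 9.97, 9.99 and 8.70 with GSI. The mean difference of 0.57 ± 0.153 (limma adjusted p = 0.1) was carried in large part by pair 1, with 1.28, while the other pairs gave 0.27 to 0.39; without pair 1 it was 0.34. Slc7a1, a transporter of arginine and lysine, had 7.55, 8.41, 8.27 and 6.92 in DMSO and 7.92, 8.61, 8.66 and 7.49 with GSI (0.38 ± 0.115, limma adjusted p = 0.136). Atf4 had 10.63, 10.86, 10.80 and 10.34 in DMSO and 10.97, 10.88, 10.89 and 10.69 with GSI (0.20 ± 0.0734, limma adjusted p = 0.223). Atf4 protein is set mainly at translation, so its mRNA level is not its activity. The groups of all 3 genes overlapped.

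Ddit3, Asns, Trib3, Chac1, Ddit4, Ppp1r15a and Mthfd2, 7 of the 15 genes, had mean differences below 0 at 10 h. Ddit3, which encodes CHOP, the factor linked to cell death under lasting stress, had 8.41, 7.66, 8.10 and 8.06 in DMSO and 8.07, 7.82, 7.83 and 7.91 with GSI, a difference of -0.15 ± 0.111 (limma adjusted p = 0.580) with 1 of 4 pairs higher. Asns, which makes asparagine, differed by -0.06 ± 0.0929. Trib3, an inhibitory pseudokinase, differed by -0.08 ± 0.194, from -0.38 in pair 1 to 0.53 in pair 4. Chac1, which breaks down glutathione, differed by -0.04 ± 0.115, and Ddit4, an inhibitor of mTORC1, by -0.16 ± 0.187. Ppp1r15a, which restores translation by guiding a phosphatase to eIF2alpha, was the only member lower in 4 of 4 pairs, against 8.2% of all genes, but 3 of those 4 differences were within 0.03 of 0 and the mean was -0.11 ± 0.105.

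The remaining enzymes and transporters of the arm had small mean differences at 10 h. The serine synthesis genes Phgdh, Psat1 and Psph gave 0.06 ± 0.0986, 0.08 ± 0.114 and 0.05 ± 0.107. Mthfd2, a mitochondrial folate enzyme, gave -0.02 ± 0.106, with levels of 7.11, 7.34, 7.25 and 6.83 in DMSO and 7.05, 7.30, 7.30 and 6.80 with GSI. Slc7a5 and Slc3a2, which together form a carrier of large neutral amino acids, gave 0.10 ± 0.119 and 0.09 ± 0.107. Their differences ran in parallel over the pairs, with 0.10, -0.29, 0.06 and 0.52 for Slc7a5 and 0.05, -0.25, -0.01 and 0.58 for Slc3a2. At 4 h Slc7a1 and Slc3a2 had the largest mean differences of the arm, 0.14 ± 0.0871 and 0.12 ± 0.0811.

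At 4 h the levels of the ATF4 genes differed more between cultures than with treatment. Among the 7 DMSO samples the SD of a gene's level had a median of 0.426 in the ATF4 arm, 0.212 in the chaperone/XBP1 arm and 0.191 over all genes. The SD of the differences within pairs was alike, with medians of 0.212, 0.211 and 0.206. Phgdh, the first enzyme of serine synthesis, had 8.55, 8.89, 8.54, 8.22, 8.15, 6.64 and 8.16 in DMSO pairs 1 to 7, and 8.61, 8.45, 8.50, 8.02, 8.09, 6.75 and 8.34 with GSI. Pair 6 was the lowest in both treatments. Psat1 followed with 7.56 and 7.44 in pair 6 against 8.47 or more in the other samples, and Psph with 6.54 and 6.42 against 7.14 or more. Shmt2 was lowest in the same pair, at 9.09 and 9.26.

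Of the stress-induced members, Ddit3, Ppp1r15a and Ddit4 were among those with their highest levels of the time in that pair. They were picked after their values were seen. Ddit3 was at 9.43 in DMSO and 9.22 with GSI in pair 6, against 8.07 to 9.19 in the other samples. Ppp1r15a was at 10.49 and 10.46, against 8.99 to 10.04, and Ddit4 at 7.33 and 7.08, against 5.68 to 6.77. Atf4, at 11.78 and 11.74, and Slc3a2, at 10.03 and 10.24, were also highest there. In the chaperone/XBP1 arm so were Atf6 (9.39 and 9.40), Xbp1 (8.44 and 8.37), Ern1 (8.48 and 8.57) and Dnajb9 (9.52 and 9.36). Other stress-induced members were not highest there in both treatments. Chac1 was at 7.19 and 7.32 in pair 6 and highest in pair 1, at 8.21 and 7.84. Trib3 was at 5.96 and 6.31 in pair 6, against 6.46 and 6.21 in pair 1. Asns was at 9.29 and 9.49, within its 4 h range of 9.13 to 9.98. Pair 6 also had the lowest mean of the stem cell gate genes at 4 h, 7.68 and 7.73 against 8.45 to 8.93 in the other 4 h samples, and the highest Hes1, 9.76 and 9.01. Its hepatocyte list was near the low end, at 6.31 and 6.43. The part of cell make-up in this pattern was not tested. The pair was singled out after its values were seen, and no test was made of it.

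**Figure D4:**
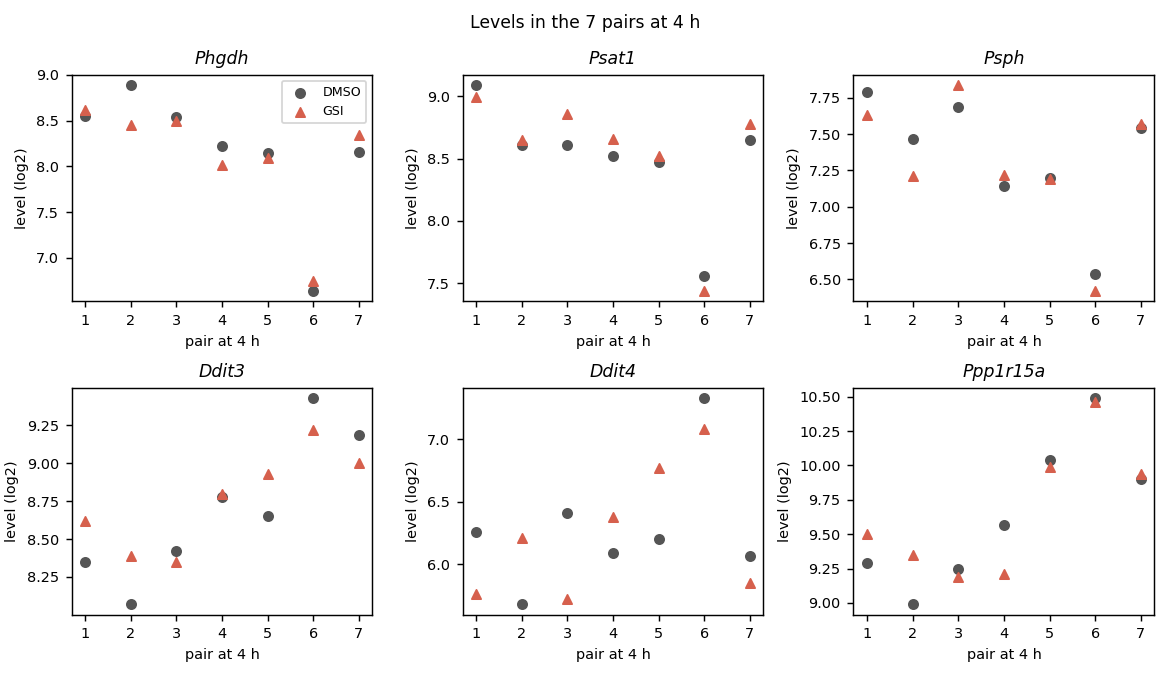
Levels (log2, as deposited) of 3 serine synthesis genes (top) and 3 stress-induced genes (bottom) in the DMSO and GSI samples of the 7 pairs at 4 h. Pair 6 is lowest for each gene of the top row, with Phgdh at 6.64 and 6.75, and highest for each gene of the bottom row, with Ppp1r15a at 10.49 and 10.46.

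Levels at 10 h and 4 h were set side by side after all 22 arrays had been quantile normalized together. No run holds both times, so time, run and the separate baselines of the deposited values cannot be told apart. On that common scale 13 members differed between the times in DMSO (5 higher and 8 lower at 10 h, limma adjusted p under 0.05), against 34.1% of all genes called, 18.8% higher and 15.3% lower. In GSI 17 members differed (7 higher and 10 lower), against 37% of all genes, 20.9% higher and 16.1% lower. The split depends on the scaling: on the deposited values 22 members were called in DMSO, with 0 higher and 22 lower, and in GSI 24, with 2 higher and 22 lower. With each array centred on its own median it was 10 higher and 6 lower in DMSO and 13 higher and 5 lower in GSI.

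Ddit4, Ppp1r15a, Ern1 and Herpud1 were called lower at 10 h (limma adjusted p under 0.05) in both treatments under all 3 scalings. The share of all genes that meet this rule was not computed, and members that were lower without a call are not listed. On the common scale Ppp1r15a lay between 8.87 and 10.25 at 4 h and between 7.10 and 8.15 at 10 h in DMSO; the 10 h minus 4 h difference was -1.90 in DMSO and -2.06 in GSI (limma adjusted p = 0.00055 and 0.00019). For Ddit4 the difference was -1.50 and -1.56 (limma adjusted p = 0.0013 and 0.00072), and for Ern1 -0.50 and -0.63 (0.0212 and 0.00147). Herpud1 went from a mean of 8.70 to 7.25 in DMSO and from 8.82 to 7.81 in GSI, a difference of -1.46 and -1.01 (limma adjusted p = 0.00087 and 0.00082). Hyou1 and Sdf2l1 went the other way on the common scale: Hyou1 rose by 0.82 in DMSO and 0.86 in GSI, and Sdf2l1 by 0.88 and 0.97 (limma adjusted p from 0.00068 to 0.0029). On the deposited values the rises of Hyou1 were 0.24 and 0.37 and were not called, and those of Sdf2l1 were 0.24, not called, and 0.46 (limma adjusted p = 0.0237). Psph, Calr and Manf were also called higher at 10 h in both treatments under the 2 rescaled settings. On the deposited values, however, Manf had differences of -0.16 in DMSO and -0.24 in GSI.

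**Figure D5:**
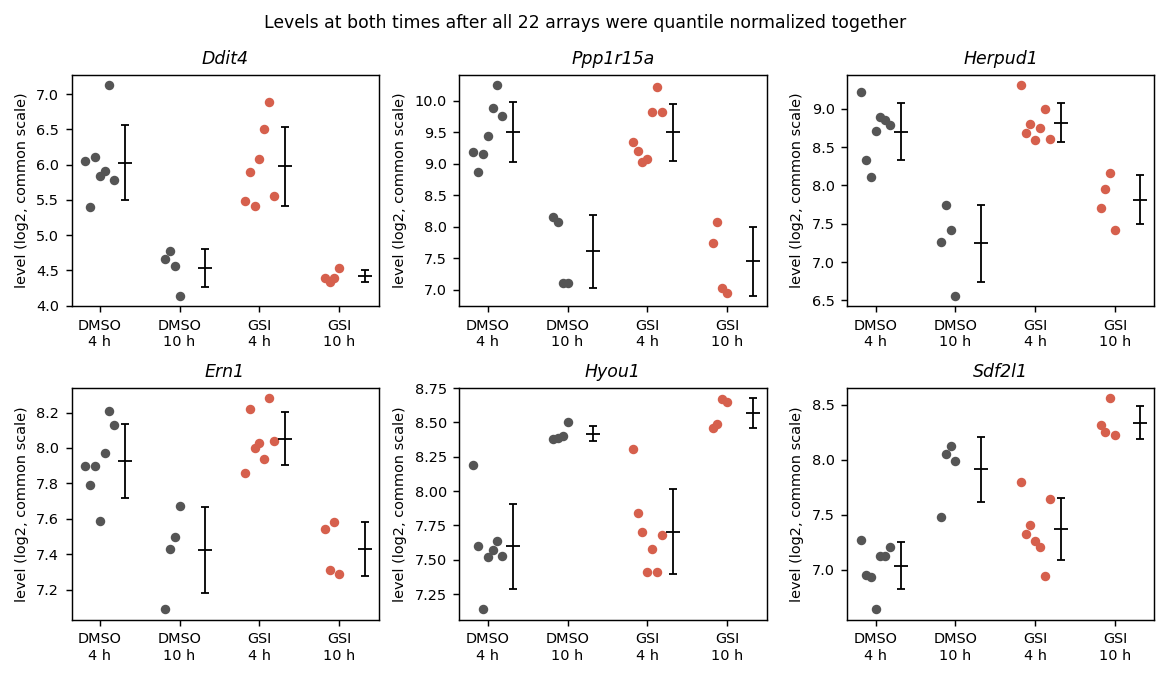
Levels (log2, all 22 arrays quantile normalized together) of 6 members in each sample of the 4 groups, with group means and SD in black. The 10 h samples of Ddit4, Ppp1r15a and Herpud1 lie below all 4 h samples of the same treatment, while those of Hyou1 and Sdf2l1 lie higher, in DMSO between 8.38 and 8.50 and between 7.48 and 8.13.

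Further genes of both pathways were read from lists outside the members. Of 61 measured genes of ER import, glycosylation, folding and export, 49 had a difference above 0 at 4 h (median 0.05) and 49 at 10 h (median 0.17), and 25 were higher in 4 of 4 pairs at 10 h. Over all genes 54.3% and 46.2% were above 0 and 8.47% were higher in 4 of 4 pairs. Of the 61 genes 1 was called at 10 h, against 0.667% of all genes: Tram1, a part of the translocation site, rose by 0.34 ± 0.0693 (limma adjusted p = 0.0396), with 0.37, 0.19, 0.33 and 0.47 in pairs 1 to 4. Ostc, a subunit of the oligosaccharyltransferase, differed by 0.62 ± 0.137 (limma adjusted p = 0.0537), of which pair 4 gave 1.47, and Ppib, an ER prolyl isomerase, by 0.40 ± 0.0917 (limma adjusted p = 0.0648). At 4 h the smallest p-values were those of Edem2 (0.23 ± 0.098), Spcs2 (0.14 ± 0.0617) and Fkbp11 (0.25 ± 0.124), none of which passed the test.

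Of 38 measured further genes of the ATF4 pathway, 30 had a difference above 0 at 4 h (median 0.05) and 18 at 10 h (median -0.0023), against 54.3% and 46.2% of all genes. In the top 30% of genes by signal the shares were 58.5% and 68%. None was called by limma, and an unadjusted p under 0.05 was reached by 0 and 5 of 38 genes, against 4.21% and 14.1% of all genes. Slc7a11, the cystine carrier that supplies glutathione synthesis, had the largest difference, -0.87 ± 0.216 (limma adjusted p = 0.0781), with -0.36, -1.56, -0.47 and -1.08 in the 4 pairs at 10 h. At 4 h it differed by -0.02 ± 0.163. Shmt1, the cytosolic counterpart of Shmt2, differed by 0.32 ± 0.0978 at 10 h (limma adjusted p = 0.139). It was higher in 7 of 7 pairs at 4 h and in 4 of 4 at 10 h, against 1.01% and 8.47% of all genes. The share of all genes higher in every pair of both times was not computed. Eif2ak4, which encodes GCN2, differed by 0.30 ± 0.123. At 4 h the smallest p-values belonged to Lars, Atf3 and Mthfd1l; Atf3 differed by 0.61, 0.55 and 0.44 in pairs 1 to 3 and by -0.05 to 0.03 in pairs 4 to 7.

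Expression was last set against the promoter elements printed above. The 9 members with ERSE or ERSE-II had a median difference of 0.12 at 4 h and 0.23 at 10 h, and 7 of them were higher in 4 of 4 pairs at 10 h, against 8.47% of all genes and 16.6% of the top 30% by signal. The 7 measured members of the arm with a window and neither element had medians of 0.11 and 0.29, with 2 of 7 higher in every 10 h pair. Outside the members 40 genes had either element in their window and 29 of them were measured. Of these, 18 had a difference above 0 at 4 h (median 0.03) and 13 at 10 h (median -0.02), against 54.3% and 46.2% of all genes, and 5 were higher in 4 of 4 pairs. A match in the letters is a description of the window and not evidence of binding.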

How the data were processed

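The authors' deposited table holds log2 expression values for 41345 probes on 22 one-colour arrays, made with RMA in Partek 6.6, per the submitters' processing notes; the genome build is not given in the sources used here. Background correction and summarisation by RMA can compress differences of dim probes. From these values the 23521 probes with 1 gene symbol were kept, with the probe of highest mean for each gene, and no gene was removed for low signal. One fit in limma 3.58.1 (R 4.3.3; lmFit and eBayes with intensity trend, 2-sided, Benjamini-Hochberg adjusted p under 0.05 over 22180 genes) took all arrays, with the pair as a block. The pairing comes from the series' design text. As a check, deviations of partners correlated at 0.223 to 0.872 at 4 h and 0.213 to 0.449 at 10 h. The DMSO sample correlated best with its own GSI partner in 6 of 7 pairs at 4 h, all but pair 4. At 10 h it did so in 4 of 4 pairs. No arrays were copies (highest correlation 0.9885). The number of arrays limits the precision. Members and lists were chosen with earlier results of these data known. Values per sample are given for members that passed, the 4 of each arm with the smallest p at each time, and Atf4, Ddit3, Xbp1, Eif2ak3, Ern1, Atf6 and Hspa5; of other pathway genes, those that passed and the 3 of each list with the smallest p. Values of other members (such as Phgdh, Psat1, Psph, Ddit4, Ppp1r15a, Hsp90b1, Hyou1, Edem1 and Syvn1) were chosen after they were seen. Alternatives were other normalizations, fits by time, no block, no trend, a signal filter, probe means, single runs and leaving out each pair.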

Additional observations from a re-analysis of the deposited data

Results flagged for a closer look

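Within the 18 members whose values are given by rule, 112 groups of values were examined for a sample far from the rest, and 5 were found; chance gives about 1 in 20. The difference of Shmt2 at 10 h was 1.28 in pair 1 and 0.27 to 0.39 in the others. Ern1 in DMSO at 10 h was 6.58 in replicate 1 and 7.07 to 7.16 in the others. Calr with GSI at 4 h was 10.84 in replicate 1 and 10.33 to 10.44 in the others, and Dnajc3 in the same sample was 9.82 against 9.59 to 9.68. Sdf2l1 with GSI at 10 h was 8.37 in replicate 3 and 7.92 to 7.99 in the others.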

How the results depend on the processing

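At 4 h the count of all genes called was 2 with that time fitted on its own arrays, 0 with no replicate block, 148 from run 2 alone and 1 to 3 without single pairs; run 2 alone gave a mean of 0.17 for the ATF4 arm, and run 3 alone 12 chaperone/XBP1 genes above 0. At 10 h the 2 members called became 1 under quantile or cyclic loess normalization or no trend, 0 on that time's own arrays, with no replicate block or from either run, and 0 to 3 without single pairs. All genes called at 10 h numbered 57 (quantile), 67 (loess), 2 (own arrays), 0 (no replicate block), 91 (no trend), 285 (dim genes left out), 0 and 15 (runs 1 and 2) and 27 to 228 without single pairs; loess left 5 ATF4 genes above 0. For the mean of both times, members called were 1 (quantile), 0 (loess, no replicate block or no trend) and 0 to 4, and all genes 45 (quantile), 2 (no replicate block), 162 (dim genes left out) and 20 to 136. For the difference between times, all genes called were 0 (quantile and no replicate block) and 0 to 7. Without the block the pairing was ignored, and Pdia6 (0.52) and Herpud1 (0.67) at 10 h had a limma adjusted p of 0.517 and 0.773. Members differing with time in DMSO were 22 on deposited values. Signs of uncalled members turned in run 3 alone at 4 h (Atf4 -0.04, Ddit3 -0.03, Shmt2 -0.05, Eif2ak3 -0.03, Xbp1 -0.04, Calr -0.01, Herpud1 -0.08) and at 10 h in run 1 alone (Atf6 -0.35, Slc7a5 -0.09, Slc3a2 -0.10, Eif2ak3 -0.06) and run 2 alone (Mthfd2 0.01, Ern1 -0.05); Atf6 was -0.03 under quantile and loess. Without single pairs, ranges were -0.02 to 0.16 (Shmt2) and -0.0034 to 0.14 (Eif2ak3) at 4 h, and -0.04 to 0.23 (Slc7a5), -0.07 to 0.21 (Slc3a2), -0.07 to 0.20 (Ern1) and -0.16 to 0.21 (Atf6) at 10 h. Apart from settings that use fewer arrays or genes, the cause was not tested. Of 136 values that answer a comparison under settings other than leaving out a pair, 105 moved by less than the spread between pairs or, for counts, by less than 1.5 times. Without detection calls, no limit above background could be set.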
